A study of Mus musculus with 9 samples.

Results

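The aryl hydrocarbon receptor (AhR) pathway was followed by RNA-seq in 4T1 cells, a mouse triple-negative mammary carcinoma line, grown as spheroids or as monolayers. The 7 genes described are the receptor Ahr, its partner Arnt, the feedback inhibitors Ahrr and Tiparp, and the enzymes Cyp1a1, Cyp1b1 and Aldh3a1. They are 7 of the 24421 genes in the count table. They were chosen from values measured in these same libraries, across all 3 conditions, so their levels and changes are given as a description. No p-value is given for a member. Nothing is read from the numbers of members called, and in the 2 main comparisons they stand beside the share of all genes called. There were 9 libraries, 3 in each of 3 groups, and every culture was kept for 5 days. The first group was grown in 3D, on a soft agar base, without extra palmitate. Its cultures received the vehicle of the fatty acid according to the study's methods. The second group was grown in 3D with 75 µM extra palmitate, coupled to albumin, and the third in 2D with the same 75 µM. All groups had serum in the medium, which itself contains fatty acids, and all come from 1 cell line. A 2D group without extra palmitate was not analysed here, so the palmitate comparison exists in 3D alone. The labels do not say whether the libraries of a group came from separate cultures, and p-values then measure only the spread between these samples.

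AhR is a ligand-activated transcription factor of the bHLH-PAS family. It waits in the cytosol in a complex with Hsp90 and co-chaperones, and ligands such as polycyclic aromatic hydrocarbons or tryptophan metabolites send it to the nucleus. There it pairs with ARNT and binds DNA elements with the core letters GCGTG near genes of xenobiotic metabolism, of which Cyp1a1 and Cyp1b1 are the textbook examples. The pathway limits itself: the AhR repressor, encoded by Ahrr, competes for ARNT and for the elements, and TIPARP, an ADP-ribosyltransferase, modifies the receptor and shortens its action. In epithelia the pathway is known for its part in the handling of foreign compounds and in differentiation.

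The promoters of Cyp1a1, Cyp1b1 and Ahrr are shown because these genes are target genes in the strict sense and hold the core letters close to their start. Each sequence is the 250 bases before the start of the RefSeq transcript (GRCm38.p6), 5′ to 3′ on the strand of the gene, with GCGTG or its reverse complement CACGC in capitals. The windows are chr9:57697363-57697612 on the plus strand for Cyp1a1, chr17:79715062-79715311 on the minus strand for Cyp1b1 and chr13:74292332-74292581 on the minus strand for Ahrr. The Cyp1a1 window lies in the first intron of a longer annotated transcript of the same gene.
Cyp1a1: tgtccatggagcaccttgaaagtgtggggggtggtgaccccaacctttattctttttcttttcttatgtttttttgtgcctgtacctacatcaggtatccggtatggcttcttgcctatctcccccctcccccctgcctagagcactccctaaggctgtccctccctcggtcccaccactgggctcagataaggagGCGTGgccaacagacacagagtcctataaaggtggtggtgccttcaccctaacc
Cyp1b1: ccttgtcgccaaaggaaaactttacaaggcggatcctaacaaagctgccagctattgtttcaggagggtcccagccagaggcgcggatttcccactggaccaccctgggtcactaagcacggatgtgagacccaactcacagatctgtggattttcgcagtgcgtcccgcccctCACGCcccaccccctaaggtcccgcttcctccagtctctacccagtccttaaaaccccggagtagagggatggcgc
Ahrr: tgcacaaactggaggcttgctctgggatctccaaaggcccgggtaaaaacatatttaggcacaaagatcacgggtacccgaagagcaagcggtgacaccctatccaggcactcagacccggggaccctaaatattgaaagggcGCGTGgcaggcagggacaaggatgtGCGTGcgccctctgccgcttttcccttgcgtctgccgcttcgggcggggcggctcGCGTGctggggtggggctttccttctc

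In these windows Cyp1a1 had 1 match, starting 54 bases before the start site (position -54), Cyp1b1 had 1 on the opposite strand at -76, and Ahrr had 3, at -107, -82 and -27. The windows of Arnt and Tiparp also held 1 match each, at -29 and, on the opposite strand, at -170. Thus GCGTG was found on either strand in all 5 of the 5 members with a window in the RefSeq promoter table, which does not list Ahr and Aldh3a1. It was found in 28.2% of all 32851 promoter windows of the same 250 bases. The longer form TNGCGTG was held by 4.10% of all windows and, among the members, by Ahrr alone, as TCGCGTG from -29. The letters ACGTG, a form of the element that ARNT binds with HIF proteins and which can also read GCGTG, were in 16.6% of all windows and in 0 of the 5 member windows. The GC content of the member windows ran from 53.6% for Cyp1a1 to 75.2% for Tiparp. A match is a description of letters and not a binding site.

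By the GENCODE annotation of GRCm38, Ahr lies on chromosome 12 (35497974 to 35535038, minus strand), Arnt on chromosome 3 (95434388 to 95497240, plus) and Tiparp on the same chromosome (65528410 to 65555518, plus). Ahrr lies on chromosome 13 (74211118 to 74292331, minus), Cyp1a1 on chromosome 9 (57687928 to 57703824, plus), Cyp1b1 on chromosome 17 (79701537 to 79715061, minus) and Aldh3a1 on chromosome 11 (61207537 to 61218421, plus). Exons of Tiparp overlap an opposite-strand pseudogene, 4931440P22Rik, which had 15 to 159 counts per library, and exons of Ahr overlap an opposite-strand long noncoding RNA that has no entry in the table. The strand setting of the counting is not given in the sources used here.

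Total counts ranged from 6595514 to 31177756 per library, and the smallest library was replicate 3 of the 3D cultures with extra palmitate. Levels are given in CPM, the counts of a gene relative to the size of its library, which the TMM method of edgeR corrects for differences in composition. All 7 members were among the 12575 genes that passed the filter on low counts. Ahrr and Cyp1a1 passed through their 3D libraries alone, and the smallest library and the 2D libraries set the limit of their precision. All 5 epithelial markers examined (Epcam, Cdh1, Krt8, Krt18 and Krt19) were detected in every library, with a summed level of 4396 to 4530 CPM in 3D with extra palmitate, 4463 to 4486 CPM in 3D without it and 3080 to 3295 CPM in 2D. Of 5 fibroblast markers 1, Pdgfra, passed the filter and carried the list, which summed to 90.7 to 110 CPM in the 3D groups and to 29.6 to 31.3 CPM in 2D, while Lum was at 0 in all libraries. Of 5 immune markers Cd68 carried the list, which summed to 6.997 to 11.5 CPM in 3D and to 24.5 to 27.9 CPM in 2D, with Cd3e at 0 throughout. The 5 endothelial markers summed to at most 1.49 CPM. The epithelial and fibroblast sums were higher in 3D than in 2D, the immune sum was lower, and the endothelial sums of the groups with extra palmitate overlapped. In 3D without extra palmitate the endothelial sum, 0.380 to 0.582 CPM, lay below the 0.961 to 1.49 CPM of 2D. The part of the marker genes in the results was not tested.

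The first comparison asked which genes differ between 3D and 2D growth when both have extra palmitate. Aldh3a1, Cyp1a1, Cyp1b1, Ahrr, Tiparp and Ahr were all higher in 3D than in 2D, from 192-fold for Aldh3a1 to 3.12-fold for Ahr, whereas Arnt overlapped between the groups. Thus 6 of the 7 members were called higher at a Benjamini-Hochberg adjusted p-value under 0.05 in edgeR's quasi-likelihood test and 0 lower. Of all genes tested, 34.5% were called higher, 33.9% lower and 68.3% in either direction. The ranges of the 3 libraries of each group did not overlap for the same 6 members, and for 69.4% of all genes. Since the members were chosen from this contrast, nothing is read from their counts. In bulk RNA, fewer cells that express a gene and less of its RNA per cell cannot be told apart.

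The receptor gene itself was among the higher ones. Ahr stood at 80.6, 73.7 and 84.8 CPM in the 3 libraries of 3D cultures with extra palmitate (mean 79.7 ± 5.63, SD, n = 3) and at 24.8, 25.8 and 25.8 CPM in 2D (25.4 ± 0.544). Its 3D libraries without extra palmitate had 83.5, 88.1 and 87.4 CPM (86.3 ± 2.51). Hence every 3D library lay above every 2D library, and both 3D groups overlapped. The fitted log2 fold change between 3D and 2D was 1.64 (SE 0.0698, 95% interval 1.49 to 1.79), higher than that of 95.3% of all genes tested.

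Arnt, which encodes the partner that AhR needs to bind DNA and that HIF-1α uses as well, differed least. It had 66.0, 66.3 and 76.3 CPM in 3D with extra palmitate (69.5 ± 5.85), 63.2, 67.0 and 57.9 CPM in 2D (62.7 ± 4.57), and 72.6, 78.2 and 81.1 CPM in 3D without extra palmitate (77.3 ± 4.34). The 2 groups with extra palmitate overlapped, while the 3 libraries without it lay above the 2D libraries. Its log2 fold change of 3D over 2D was 0.14 (SE 0.0786, interval -0.03 to 0.30) and turned to -0.13 once trends with GC content and length were removed.

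The receptor and its partner therefore changed places. Per kilobase of exon, the scale on which genes can be compared with each other, the ratio of Ahr to Arnt was 1.49 ± 0.0823 in 3D with extra palmitate, 1.45 ± 0.0478 in 3D without it and 0.529 ± 0.0426 in 2D. No library of the 2D group reached the 3D range, in which the lowest ratio was 1.40, while the highest in 2D was 0.578.

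Both feedback inhibitors were higher in 3D, at very different levels. Tiparp was abundant, with 362, 418 and 460 CPM in 3D with extra palmitate (413 ± 49.3), 414, 403 and 435 CPM without it (417 ± 16.6) and 133, 129 and 118 CPM in 2D (127 ± 7.59). Its fitted log2 change between 3D and 2D was 1.70 (SE 0.0839, interval 1.52 to 1.88), close to that of Ahr. Ahrr was near the limit of detection, with 1.44, 0.760 and 1.07 CPM in 3D with extra palmitate (1.09 ± 0.338), 1.18, 1.23 and 1.52 CPM without it (1.31 ± 0.183) and 0.0827, 0.192 and 0.223 CPM in 2D (0.166 ± 0.0737). The 2D values rest on 1, 6 and 5 counts, and the 3D values with extra palmitate on 39, 10 and 7. Nevertheless no 2D library reached a 3D library. The log2 fold change of Ahrr was 2.64 (SE 0.402, interval 1.78 to 3.50), and the ratio of summed counts per total was 6.55 with an exact 95% interval of 3.47 to 13.4 for counting error only.

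The P450 enzymes differed in level and in size of change. Cyp1b1, which hydroxylates estrogens and polycyclic hydrocarbons and is expressed in mammary tissue, had 221, 231 and 254 CPM in 3D with extra palmitate (235 ± 16.8), 237, 236 and 243 CPM without it (239 ± 3.97) and 30.4, 31.5 and 31.3 CPM in 2D (31.0 ± 0.603). Its groups were tight and far apart, with a fitted log2 change from 2D to 3D of 2.92 (SE 0.0696, interval 2.77 to 3.06), or 7.54-fold. Cyp1a1, the classical readout of AhR activity, was low everywhere. It had 3.61, 2.96 and 3.52 CPM in 3D with extra palmitate (3.36 ± 0.350), 1.46, 3.17 and 2.66 CPM without it (2.43 ± 0.873) and 0.248, 0.0320 and 0.267 CPM in 2D (0.182 ± 0.131).

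The 2D values of Cyp1a1 rest on 3, 1 and 6 counts, against 98, 39 and 23 in 3D with extra palmitate. All 2D libraries lay below all 3D libraries. The log2 fold change was 4.41 (SE 0.447, interval 3.45 to 5.36), and the ratio of summed counts per total was 22.4 (exact interval 11.9 to 47.7, counting error only). Its size depended on single 2D libraries: it was 3.66 without replicate 2 of the 2D cultures and 5.08 without replicate 3. Cyp1a2, the third enzyme of the family, which is typical of liver, did not exceed 2 counts per library and failed the filter.

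Aldh3a1, an aldehyde dehydrogenase that oxidizes aromatic and lipid-derived aldehydes, showed the widest gap. It had 591, 603 and 459 CPM in 3D with extra palmitate (551 ± 80.1), 599, 470 and 472 CPM without it (514 ± 74.1) and 3.64, 2.47 and 2.90 CPM in 2D (3.00 ± 0.593). In raw counts this is 16051, 7938 and 2994 against 44, 77 and 65. Fitted as 3D over 2D, the log2 change was 7.59 (SE 0.169, interval 7.23 to 7.95), or 192-fold, and exceeded that of 99.9% of all genes tested. Among the members, Cyp1a1 came next, with a value above 99.5% of genes, followed by Cyp1b1 with 98.4%, Ahrr with 98.1%, Tiparp with 95.6%, Ahr with 95.3% and Arnt with 58.4%.

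**Figure D1:**
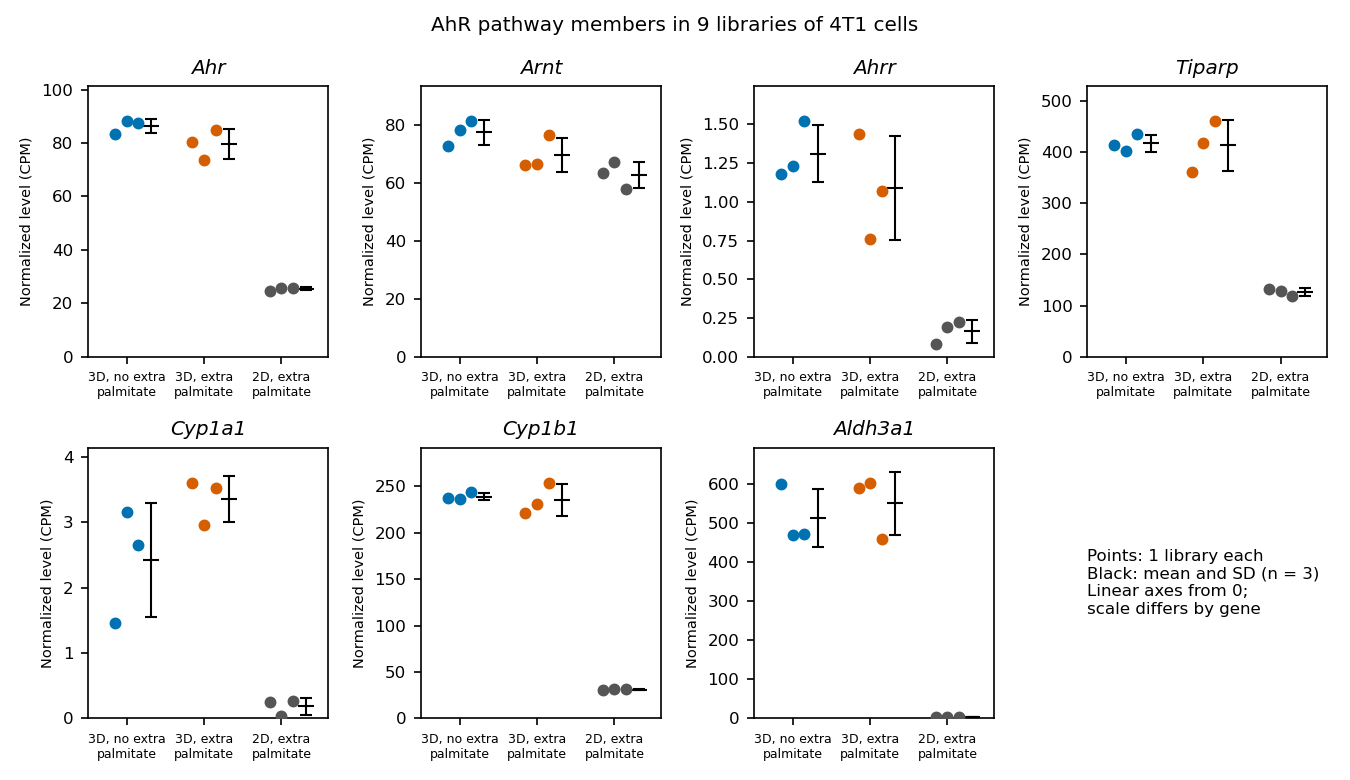
Level of each of the 7 members in CPM (vertical axis, linear from 0, with a scale of its own per gene) in the 3 libraries of each group (points), with the mean and SD of the group in black. For every member except Arnt, all 6 libraries of 3D cultures lie above all 3 libraries of 2D cultures, and the 3D groups with and without extra palmitate overlap. The members were chosen from these values, and the share of all genes with this pattern was not computed.

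The order of the members by level per kilobase of exon was the same in both 3D groups. In 3D with extra palmitate Aldh3a1 came first with 284 CPM per kb, followed by Tiparp with 94.8, Cyp1b1 with 40.3, Ahr with 12.9, Arnt with 8.68, Cyp1a1 with 1.21 and Ahrr with 0.115 CPM per kb. The ranges of neighbours in this order did not overlap. In 2D, Tiparp led with 29.1 CPM per kb, Arnt was second with 7.83, then came Cyp1b1 with 5.32, Ahr with 4.13 and Aldh3a1 with 1.55, and Cyp1a1 (0.0655) and Ahrr (0.0176 CPM per kb) overlapped at the lower end. Aldh3a1 thus moved from the first to the fifth place. Its ratio to Cyp1b1 on this scale was 7.11 ± 1.46 in 3D with extra palmitate, 6.47 ± 0.985 in 3D without it and 0.291 ± 0.0634 in 2D. Among the tested genes with a known exon length, Aldh3a1 stood above 99.5% in 3D with extra palmitate and above 21.3% in 2D. Tiparp, in contrast, stood above 97.2% and 84.2%, and Cyp1b1 above 90.3% and 42.3%.

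The 3D cultures without extra palmitate differ from the 2D cultures in both respects, so the effects of growth and palmitate cannot be told apart in this pair of groups. The ratio of the mean CPM was 171 for Aldh3a1, 13.3 for Cyp1a1, 7.89 for Ahrr, 7.69 for Cyp1b1, 3.39 for Ahr, 3.29 for Tiparp and 1.23 for Arnt. Every member, Arnt included, lay above the 2D range in these libraries, but the members were chosen from these values. The share of all genes with ranges apart was not computed for this pair, so nothing is read from these positions.

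The second comparison asked what extra palmitate does in 3D. Here 0 of the 7 members were called by edgeR, and DESeq2 called 0 as well. Of all genes tested, 2.19% were called, and the ranges of the groups did not overlap for 18.6% of all genes and for 0 of the 7 members. The contrast was among those from which the members were chosen, and the intervals of the differences are therefore the main information. Both comparisons use the same 3D libraries with extra palmitate and are not independent of each other.

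The intervals were narrow for the abundant members and wide for the rare ones. For Cyp1b1 the log2 change from 3D without to 3D with extra palmitate was -0.03 (SE 0.0625, 95% interval -0.16 to 0.11), for Tiparp -0.02 (SE 0.0808, interval -0.19 to 0.15) and for Aldh3a1 0.10 (SE 0.111, interval -0.14 to 0.34). For Ahr it was -0.12 (SE 0.0651, interval -0.26 to 0.02) and for Arnt -0.16 (SE 0.0782, interval -0.33 to 0.00). The intervals of these 5 members all lay within -0.33 and 0.34. In contrast, Ahrr with -0.16 (SE 0.282, interval -0.76 to 0.44) and Cyp1a1 with 0.51 (SE 0.277, interval -0.08 to 1.11) could not be narrowed further at this depth. The estimate of Cyp1a1 rests on 31, 49 and 49 counts without and 98, 39 and 23 counts with extra palmitate, and replicate 1 without extra palmitate, at 1.46 CPM, lay well below the other libraries of both 3D groups. Without it the value was 0.22. Arnt was called in 1 alternative, with a log2 fold change of -0.23, when replicate 3 of the cultures with extra palmitate was left out.

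**Figure D2:**
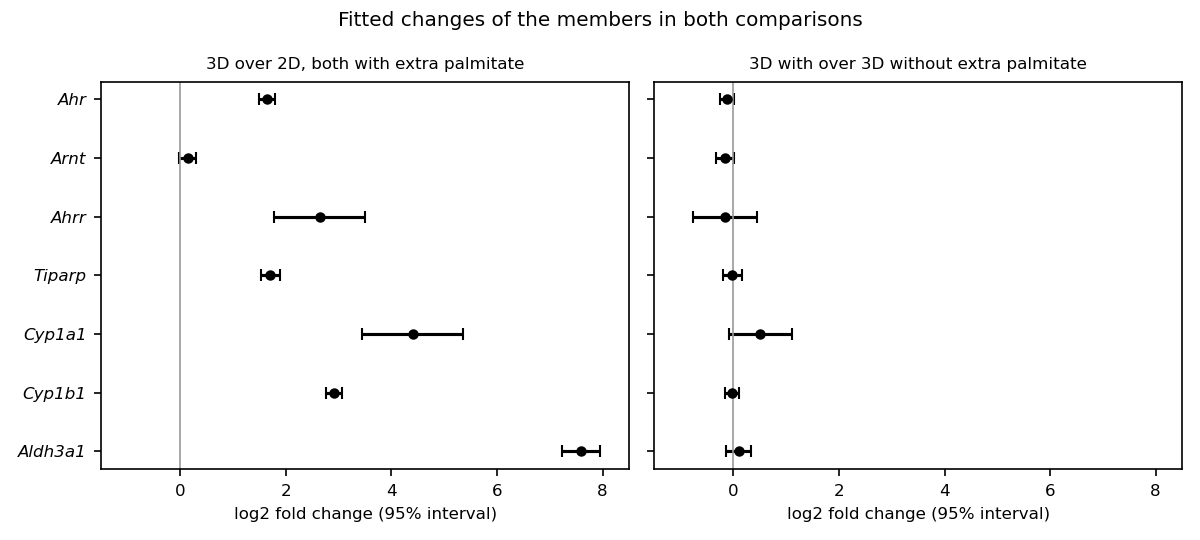
Fitted log2 fold change of each member (point) with its 95% interval (bar) for 3D over 2D, both with extra palmitate (left), and for 3D with over 3D without extra palmitate (right), on the same axis. On the left, 6 members lie between 1.64 and 7.59 and Arnt lies at 0.14, a value that turned to -0.13 once GC and length trends were removed; on the right, all 7 intervals include 0.

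Next, the other genes of the pathway were examined by role, from 6 lists that held 56 genes besides the members. Of these, 39 passed the filter. Between 3D and 2D, 23 of the 39 were called higher and 9 lower, where 34.5% of all genes were called higher and 33.9% lower, and 7 were not called. The median log2 fold change of the 39 was 0.42, compared with 0.01 for all genes tested. Calls in either direction made up 82.1% of the 39 and 68.3% of all genes. Among the higher calls, Sim2, Npas3, Ugt1a6a, Gsta1, Gsta2, Gsta3, Il1b, Il6 and Tdo2 would not have passed the filter on their 2D libraries. Fgf21, called lower, would not have passed on its 3D libraries. These calls were favoured in advance, so nothing is read from the numbers called or from the median. The ranges of the groups did not overlap for 30 of the 39, and for 69.4% of all genes, so this count was near the background. With extra palmitate in 3D, 0 of the 39 were called by edgeR and 0 by DESeq2, where edgeR called 2.19% of all genes. An unadjusted edgeR p-value under 0.05 was found for 9 of the 39. The share of all genes under that cut was not computed, so nothing is read from the 9. The median was 0.05 against 0.01 for all genes. In that comparison 8 of the 39 had no overlap, also near the 18.6% of all genes.

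The genes for chaperones and turnover of the receptor were the list with 0 of 6 called higher, against 34.5% of all genes. Here 3 were called lower in 3D, against 33.9% of all genes, and the median log2 fold change was -0.36. Hsp90ab1, the constitutive Hsp90 that holds the unliganded receptor, had 2889 ± 142 CPM in 3D and 4930 ± 59.4 CPM in 2D, both with extra palmitate (log2 fold change -0.77, SE 0.0554, edgeR adjusted p = 1.82e-08). Ptges3, which encodes the co-chaperone p23, had 112 ± 3.33 CPM against 175 ± 8.78 CPM (-0.64, SE 0.0619, adjusted p = 3.85e-07). The ranges of both genes were apart, and 3D cultures without extra palmitate were close to those with it, at 2884 ± 41.8 and 113 ± 3.64 CPM.

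Of 8 ARNT partners and paralogs, 3 were tested and all 3 were called higher in 3D, against 34.5% of all genes. Sim2 and Npas3 passed the filter through their 3D libraries alone. Their rise was therefore favoured in advance, and nothing is read from this count. Hif1a, the oxygen-labile partner of ARNT, rose by little, from 302 ± 24.9 CPM in 2D to 384 ± 58.0 CPM in 3D (log2 fold change 0.34, SE 0.0967, adjusted p = 0.00600). Its 3D libraries without extra palmitate overlapped with the 2D libraries. Sim2, a bHLH-PAS factor of mammary and neural differentiation, was scarce, with 2, 4 and 5 counts in 2D against 28, 12 and 4 in 3D (2.42, SE 0.457, adjusted p = 2.69e-04). Given how Sim2 passed the filter, this p-value is no support for its rise. Arnt2, the paralog of Arnt, was too low to be tested, at 0.664 ± 0.342 CPM in 3D with extra palmitate, 0.279 ± 0.212 CPM in 3D without it and 0.179 ± 0.0134 CPM in 2D. Arnt was thus by far the more abundant of the pair.

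Among 6 coregulators 5 were called higher and 0 lower in 3D, against 34.5% and 33.9% of all genes. Their median log2 fold change was 0.52. Nrip1, which encodes the corepressor RIP140, had 64.5, 71.6 and 89.9 CPM in 3D against 13.6, 17.7 and 10.3 CPM in 2D (log2 fold change 2.40, SE 0.161, adjusted p = 8.89e-09). The increase of Ep300, a histone acetyltransferase and coactivator, was smaller, from 104 ± 10.6 to 175 ± 11.3 CPM (0.74, SE 0.0777, adjusted p = 9.11e-07).

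The enzymes of xenobiotic metabolism were the list with the highest median, 2.57. Of 12 genes 8 were tested, of which 6 were called higher and 1 lower, against 34.5% and 33.9% of all genes. The median and the higher calls include Ugt1a6a, Gsta1, Gsta2 and Gsta3, which would not have passed the filter on their 2D libraries. Their rise was favoured in advance, so nothing is read from the count or the median. Nqo1, a quinone reductase and a target of both AhR and NRF2, had 259, 256 and 228 CPM in 3D with extra palmitate (247 ± 17.2), 235 ± 3.37 CPM without it and 22.3, 21.8 and 22.4 CPM in 2D (22.2 ± 0.327). Its log2 fold change of 3D over 2D was 3.48 (SE 0.0714, adjusted p = 1.04e-13), or 11.2-fold, and that of extra palmitate was 0.08 (interval -0.05 to 0.21, adjusted p = 0.562). Xdh, the xanthine dehydrogenase, rose from 35.7 ± 3.09 CPM in 2D to 147 ± 6.75 CPM in 3D (2.04, SE 0.0883, adjusted p = 8.40e-11). Ugdh, which supplies UDP-glucuronic acid for conjugation, was just past the threshold in the other direction (-0.15, SE 0.0604, adjusted p = 0.0413), and this call was lost in 10 of 16 alternatives.

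Phase II enzymes outside the naming rule, chosen after their values were seen, made up the rest of the rise. Ugt1a6a, a glucuronosyltransferase of phenols, had 94, 42 and 25 counts in 3D with extra palmitate and 0, 2 and 0 in 2D. The ratio of summed counts per total was 113, with an exact interval of 30.8 to 941 for counting error only, and the edgeR adjusted p = 5.10e-09. Its reads may be shared with the near-identical Ugt1a6b, which had at most 2 counts in a library, and this was not tested. Gsta3 had 7.70 ± 1.25 CPM in 3D and 0.138 ± 0.0426 CPM in 2D (log2 fold change 5.76, adjusted p = 2.49e-10), while Gsta1 and Gsta2, near-identical paralogs whose reads may be split, had log2 fold changes of 2.73 and 2.41. Ugt1a6a, Gsta1, Gsta2 and Gsta3 would not have passed the filter without their 3D libraries. A rise was thus favoured in advance, and their changes and p-values are no support for it.

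Of 12 other reported AhR targets, 10 were tested. Of these, 6 were called higher and 2 lower, against 34.5% and 33.9% of all genes. The higher calls include Il1b and Il6, which would not have passed the filter on their 2D libraries, so nothing is read from the count. Cdkn1a, the cell cycle inhibitor p21, rose from 19.2 ± 1.19 CPM in 2D to 87.3 ± 4.28 CPM in 3D (log2 fold change 2.20, SE 0.0731, adjusted p = 4.66e-12), and Areg, which encodes the EGFR ligand amphiregulin, from 65.0 ± 2.29 to 232 ± 21.98 CPM (1.83, SE 0.0778, adjusted p = 6.80e-11). Nfe2l2, which encodes NRF2 and was named after its value was seen, rose from 109 ± 2.84 to 245 ± 39.9 CPM (1.16, adjusted p = 5.56e-08). In contrast, Fgf21, a hormone of the fasting response, fell from 3.14, 2.53 and 2.90 CPM in 2D to 0.184, 0.152 and 0 CPM in 3D (-4.18, SE 0.381, adjusted p = 2.20e-07), the last of which is a library with 0 counts. Fgf21 passed the filter through its 2D libraries alone, so a fall was favoured in advance and this p-value is no support for it. Ptgs2, encoding cyclooxygenase-2, had 599 ± 68.6 CPM in 3D and 734 ± 27.3 CPM in 2D (-0.30, SE 0.0778, adjusted p = 0.00355).

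The genes of tryptophan and kynurenine metabolism, which can supply ligands of the receptor, were split. Of 12 genes 6 were tested, with a median of -0.06. Here 3 were called higher and 3 lower, against 34.5% and 33.9% of all genes. Afmid, the formamidase that makes kynurenine, rose by 0.42 on the log2 scale (SE 0.111, adjusted p = 0.00409). Kyat1, a kynurenine aminotransferase listed under its older symbol Ccbl1, rose by 0.43 (SE 0.152, adjusted p = 0.0199), a call lost in 4 of 16 alternatives, whereas its relative Kyat3, listed as Ccbl2, fell from 12.6 ± 0.729 to 3.50 ± 0.959 CPM (-1.78, SE 0.142, adjusted p = 5.45e-08). Slc3a2, the heavy chain of the amino acid transporter that imports tryptophan and exports kynurenine, fell from 417 ± 16.9 to 285 ± 33.3 CPM (-0.54, SE 0.0793, adjusted p = 2.56e-05). The 3 enzymes that open the route were scarce. Tdo2, named after its value was seen, was called higher in 3D (1.49, SE 0.620, adjusted p = 0.0452) on 7, 5 and 8 counts against 2, 4 and 4 in 2D. It passed the filter through 3D libraries alone, so a rise was favoured in advance and this p-value is no support for it. Ido1 and Ido2 did not pass the filter, with 0.100 and 0.588 CPM in 3D with extra palmitate and 0.0276 and 0.0807 CPM in 2D.

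**Figure D3:**
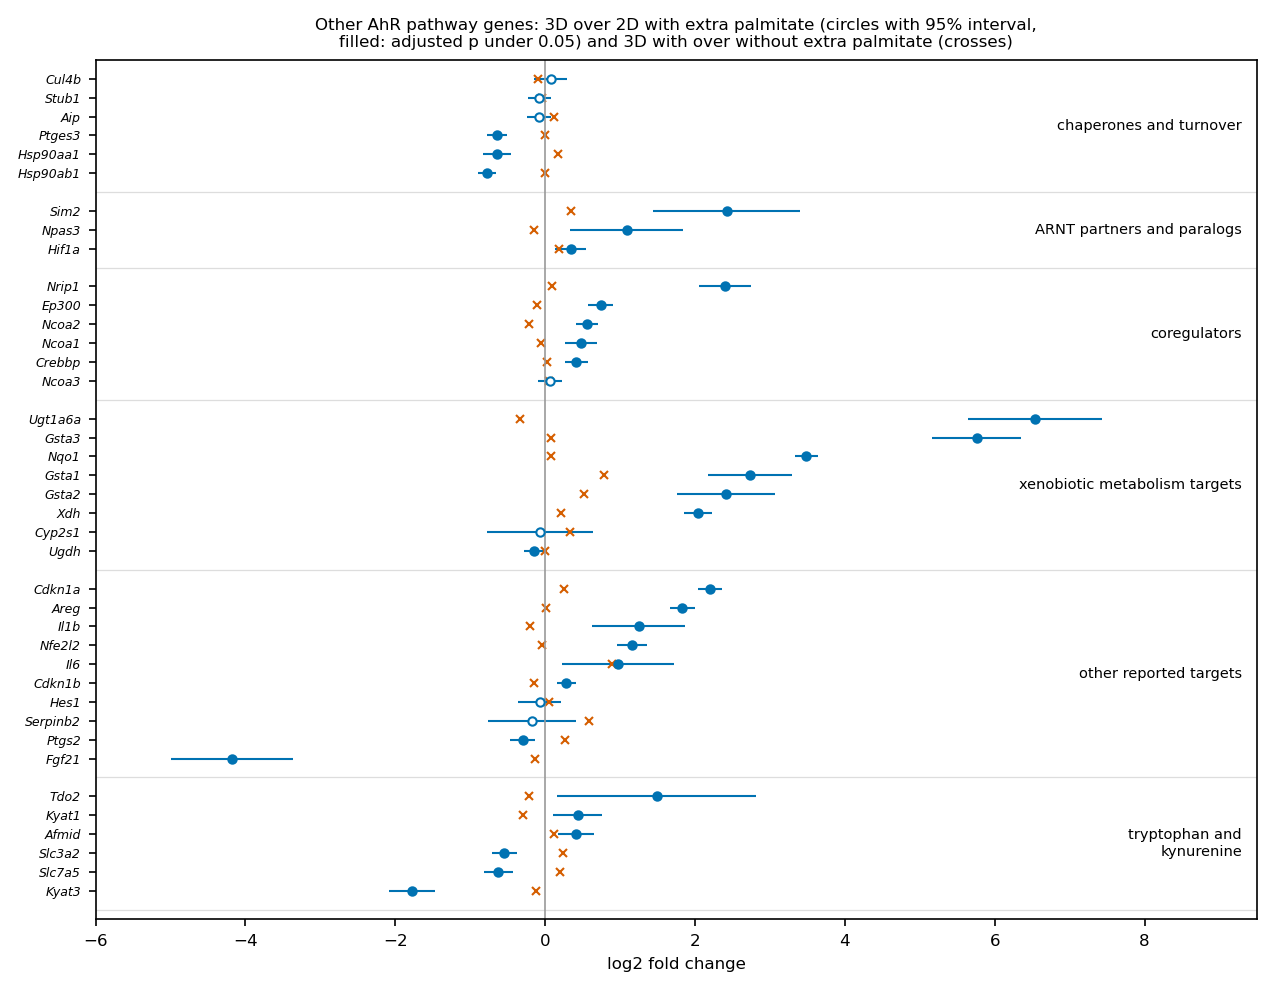
Log2 fold change (horizontal axis) of the 39 tested pathway genes besides the members, grouped by role, for 3D over 2D with extra palmitate (circles with 95% intervals, filled where the adjusted p is under 0.05) and for 3D with over without extra palmitate (crosses). The filled circles lie right of 0 for 23 genes and left of 0 for 9, from -4.18 for Fgf21 to 6.54 for Ugt1a6a, and none of the crosses belongs to a called gene in the fit of all libraries. Several filled circles, those of Fgf21 and Ugt1a6a among them, belong to genes that passed the filter through the libraries in which they are higher.

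Genes with the most similar profile were sought for the members, by the root mean square (RMS) difference of log2 CPM after each gene was centred on its mean over the 9 libraries. The libraries and their normalization are common to all points, and most of the variation is between 3D and 2D. The profile of Arnt was closest to Homer1 (RMS 0.0301), Bptf and Malt1. Tiparp was closest to Hmga2 (RMS 0.0512), Cdk6 and Cd44, and Ahr to Tiam1 (RMS 0.0620), Pdzrn3 and Dmtn. For Cyp1b1 they were Slc22a23 (RMS 0.0862), Trib2 and Plet1. Cyp1a1 and Aldh3a1 had no neighbour as close. For Cyp1a1 the nearest were Klk6 (RMS 0.337), Krt13 and Prex1, and for Aldh3a1 Scara5 (RMS 0.281), Gas7 and Nlrp10. None of the 7 members was among the 3 nearest genes of another.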

How the data were processed

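Poly(A) RNA of 4T1 cultures was sequenced, and the authors deposited raw counts of reads per gene, without normalization. According to the study's methods, single-end reads of a stranded library kit were cleaned with fastq-mcf, inspected with FastQC 0.11.9, aligned to GRCm38 with HISAT2 2.1.0 and counted with HTSeq. The annotation release behind the counts is not given in the sources used here. Groups came from the sample labels. The counts were filtered with filterByExpr, scaled by TMM and fitted by the quasi-likelihood method of edgeR 4.0.16 in R 4.3.3, with all 9 libraries in 1 fit, condition as the only term and Benjamini-Hochberg adjustment over 12575 genes. Genes under an adjusted p-value of 0.05 were called. The procedure was tested on simulated data. Log2 CPM profiles used a prior count of 2. Exon lengths and positions came from GENCODE by symbol (23376 of 24421 genes matched) and promoters from RefSeq.

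The members and lists were chosen with earlier results of these data known. Named besides the members were, per role list and comparison, the 2 called genes with the smallest p in each direction, Nqo1, Cyp1a2 and Arnt2, and the 3 genes most alike each member, which for Ahrr are not reported here. Alternatives were RLE scaling, library size only, no filter, at least 10 counts in every library, the 2 groups alone, a replicate block, the share of the ribosomal precursor Rn45s as a covariate, DESeq2 1.42.0 and each library left out. Removal of GC and length trends with splines of 4 degrees of freedom was chosen after seeing the data. Chi-square values per gene between libraries of 1 group were 3.89 to 19.7, above sampling noise. Rn45s took 1.77% to 5.38% of counts. Intervals on summed counts cover counting error only.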

Additional observations from a re-analysis of the deposited data

How the results depend on the processing

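The members were chosen from these values, so that their calls between 3D and 2D lasted in the alternatives is no support for them. At least 10 counts in every library removed Ahrr and Cyp1a1 and left 4 called members, where 7841 of all 11094 genes tested were called. The range of the log2 fold change was 1.47 to 1.69 for Ahr, 2.21 to 2.84 for Ahrr, 2.75 to 2.96 for Cyp1b1, 1.62 to 1.79 for Tiparp and 7.43 to 7.71 for Aldh3a1. The number of all genes called with extra palmitate, 275, became 617 without a filter, 77 with the 2 groups alone, 111 with the replicate block, 44 with the Rn45s share as a covariate, 832 without GC and length trends, and 71 to 1901 with 1 library left out, the last without replicate 3 of the 3D cultures with extra palmitate. The share of higher calls there was 62.9%, against 46.7% with scaling by library size only and 52.7% without a filter. Between 3D and 2D it was 50.4%, against 42.8% without GC and length trends. For the other pathway genes with extra palmitate, 0 were called by edgeR. Without a filter 2 were called (Gsta1 and Ptgs2), where 617 of all 18522 genes tested were called. Without GC and length trends 6 were called, where 832 of all 12575 genes tested were called. With 1 library left out 0 to 7 were called. The highest of these, 7, came without the same replicate 3, where 1901 of all 12787 genes tested were called. Without replicate 1 of that group 1 gene, Ptgs2, was called, where 148 of all 12613 genes tested were called. Of the members 0 to 1 were called with 1 library left out (Arnt). The cause was not tested.

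Replicate numbers are shared across groups, but deviations of same-numbered libraries correlated at only -0.238 to 0.145 over 9 pairs, and not every library correlated best with its own number, so the libraries were treated as sharing a number only. Besides taking the 275 genes called with extra palmitate to 111, the block changed no call of a member. Between 3D and 2D the block called 31 of the other pathway genes in place of 32. Of all 12575 genes tested, it called 8323 there in place of 8594. Low counts in 2D limit Ahrr and Cyp1a1.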
